A study of Mus musculus with 46 samples.

Results

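The 10 genes described here write, maintain or erase methyl groups on cytosine, or steer that machinery to chromatin: Dnmt1, Dnmt3a, Dnmt3b, Uhrf1, Uhrf2, Tet1, Tet2, Tet3, Trim28 and Setdb1. They were chosen by name from the 14888 mouse genes listed in either of 2 tables of RNA sequencing values, and each of the 10 was listed once in both tables. The values come from 14 libraries of cells grown from thyroid tumours. Mice carried conditional mutations that a tamoxifen-inducible Ascl-CRE recombined in neuroendocrine cells. The 4 groups analysed were compared in 2 pairs: 4 RPM lines (Rb/p53/Max mutant) against 4 RP lines (Rb/p53 mutant), and 3 Max addback libraries (Rb/p53/Max mutant cells transduced with a vector expressing Max) against 3 empty vector libraries (cells labelled with the same genotype, transduced with the control vector). All groups therefore carry the Rb and p53 mutations. Each of the 8 lines has a name of its own, whereas the 6 addback and empty vector libraries all bear the name of RPM replicate 2. Their Y-linked reads, given below, differ so much that it is in doubt whether the addback cells are of that line. The sources used here do not say whether cultures were separate. The p-values below measure the spread between these libraries, which in the addback experiment may be technical. The study asks how loss of MAX, the partner with which MYC proteins bind DNA, alters transcription. The sources used here do not give the ages of the mice. A further 32 libraries, of tumours, were not analysed here.

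DNA methylation in mammals sits mostly on the cytosine of CpG pairs. DNMT3A and DNMT3B place new methyl groups, and DNMT1 copies them to the new strand after replication. UHRF1 recognises CpG pairs methylated on only the old strand and brings DNMT1 there, and UHRF2 is its paralogue. TET1, TET2 and TET3 oxidise methylcytosine, the first step of its removal. TRIM28 is a corepressor recruited by KRAB zinc finger proteins, and SETDB1 is the H3K9 methyltransferase that it brings to chromatin; neither is a DNA methyltransferase, but the loci they silence are commonly DNA methylated too.

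The promoter sequences are shown for Dnmt3a, whose window held the only copy of the motif bound by MYC and MAX, and for the 3 genes that passed the test in the addback experiment. RefSeq sequence (GRCm38.p6) from 250 bases before to 50 bases after each annotated start was read for 15 windows, which covered 10 of the 10 genes. The E-box CACGTG, which reads the same on both strands, stood in 1 of the 15 windows. It lay in the third Dnmt3a window (chr12:3891494-3891793, plus strand), 80 bases before the annotated start of that window. The first and second Dnmt3a windows (chr12:3806730-3807029 and chr12:3806910-3807209), nearer the first base of the gene at 3806007, held 0 copies. Of all 32851 RefSeq windows of that length, 7.15% held the E-box. In the first line below, capitals mark that E-box.
Dnmt3a: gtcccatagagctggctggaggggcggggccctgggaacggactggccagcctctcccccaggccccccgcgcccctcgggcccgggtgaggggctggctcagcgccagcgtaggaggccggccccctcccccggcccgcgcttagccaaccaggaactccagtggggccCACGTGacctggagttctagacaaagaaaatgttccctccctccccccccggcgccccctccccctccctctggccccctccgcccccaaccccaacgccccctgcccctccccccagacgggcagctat
The E2F motifs TTTCCCGC and TTTGGCGC, searched on both strands, stood in 1 window, of Dnmt1, against 1.56% of all windows. CpG pairs numbered 2 to 57 per window in the 15 windows, against a median of 7 in all windows (quartiles 3 and 20). The first window of Uhrf1 (chr17:56303087-56303386, plus strand), which spans the first base of the gene at 56303321, had 12 and is not printed. In the next 3 lines capitals mark CpG pairs, of which Dnmt3b (chr2:153649199-153649498, plus strand) had 30, the second window of Uhrf1 (chr17:56304063-56304362, plus strand) 33 and Uhrf2 (chr19:30030263-30030562, plus strand) 28.
Dnmt3b: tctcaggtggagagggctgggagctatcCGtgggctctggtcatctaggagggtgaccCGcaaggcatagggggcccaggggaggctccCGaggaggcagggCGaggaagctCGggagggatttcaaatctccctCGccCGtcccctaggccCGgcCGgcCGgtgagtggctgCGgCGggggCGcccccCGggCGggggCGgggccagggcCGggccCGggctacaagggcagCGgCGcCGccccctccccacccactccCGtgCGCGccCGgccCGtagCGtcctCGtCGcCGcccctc
Uhrf1: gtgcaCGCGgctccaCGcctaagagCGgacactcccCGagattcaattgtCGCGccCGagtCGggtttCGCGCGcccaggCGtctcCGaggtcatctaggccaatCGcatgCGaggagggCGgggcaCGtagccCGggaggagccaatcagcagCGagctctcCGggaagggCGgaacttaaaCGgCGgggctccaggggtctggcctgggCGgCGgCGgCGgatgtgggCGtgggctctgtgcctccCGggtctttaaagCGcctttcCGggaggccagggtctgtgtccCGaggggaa
Uhrf2: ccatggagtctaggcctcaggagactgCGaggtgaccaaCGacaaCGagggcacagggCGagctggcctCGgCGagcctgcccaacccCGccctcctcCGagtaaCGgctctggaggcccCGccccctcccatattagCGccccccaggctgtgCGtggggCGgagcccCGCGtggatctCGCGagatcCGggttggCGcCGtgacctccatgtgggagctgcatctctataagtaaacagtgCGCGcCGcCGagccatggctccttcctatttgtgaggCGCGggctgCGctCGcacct
A match describes the letters of the window only, and no methylation or binding was measured in these libraries.

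Levels are given as CPM, read counts that the authors scaled to library size with TMM factors, and as RPKM, the same levels per kilobase, where genes are compared with each other. Depth over the listed genes was 7829982 to 8408913 reads in RPM, 8242657 to 8498396 in RP, 7426964 to 7912573 in addback and 6738614 to 7238672 in empty vector libraries. The smallest count behind a value of the 10 genes was 78 reads, for Dnmt3b in RPM replicate 4. Max itself averaged 88.2 ± 16.2 CPM in RPM and 54.6 ± 8.80 CPM in RP lines (SD, n = 4 each), with a log2 change of 0.68 and limma's adjusted p = 0.161; reads over the whole gene do not show whether exons are missing. It averaged 240 ± 17.2 CPM with addback and 88.5 ± 6.73 CPM with empty vector (SD, n = 3 each), with a log2 change of 1.43. Of 10 C cell and neuroendocrine markers, 10 were listed, with summed levels of 5109 to 23134 CPM in RPM and 5530 to 8743 CPM in RP lines, while 1 of 6 thyroid follicular markers was listed in the table of the lines and summed to at most 8.88 CPM; thyroglobulin was not listed in either table. Addback replicate 3 stood apart from its group: read counts differed by a chi-square of 16.3 and 13.8 per degree of freedom from replicates 1 and 2, against 1.88 between those replicates and 1.81 to 1.97 among empty vector libraries. Results of the addback experiment that change without it are given both ways. The addback libraries also held 0 to 2 reads from 4 Y-linked genes, against 2686 to 2958 in the empty vector libraries and 2207 in RPM replicate 2. Line identity is thus uncertain for the addback libraries, and the presence of Max and any other difference between the transduced populations, origin included, cannot be told apart. RPM replicate 1 shares an animal identifier with a tumour library labelled Rb/p53 mutant, and its own label was kept.

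In all 4 groups Trim28 had the highest level per length, Dnmt1 the next and Dnmt3b the lowest. Trim28 averaged 126 ± 31.7 RPKM in RPM and 167 ± 11.8 RPKM in RP lines (SD, n = 4 each), and 118 ± 7.20 RPKM with addback and 120 ± 3.66 RPKM with empty vector (SD, n = 3 each). Dnmt1 averaged 87.8 ± 19.7 RPKM in RPM and 119 ± 13.0 RPKM in RP lines, and its range overlapped that of Trim28 in RPM lines but not in the other 3 groups. Uhrf1 and Dnmt3a took places 3 and 4, with overlapping ranges except in empty vector libraries, where Uhrf1 stood above Dnmt3a. In RPM lines Dnmt3a averaged 32.7 ± 7.65 and Uhrf1 26.5 ± 15 RPKM. Setdb1 and then Tet3 followed in every group, at 15.8 ± 1.37 and 10.7 ± 2.03 RPKM in RPM lines, with ranges that overlapped in RP and addback libraries only. Among the TET genes the order was Tet3, Tet1, Tet2 in each group; Tet1 averaged 7.87 ± 0.645 and Tet2 5.84 ± 0.489 RPKM in RPM lines, where their ranges did not overlap. Uhrf2 stood seventh in RPM, addback and empty vector libraries and ninth in RP lines, at 8.43 ± 2.01 RPKM in RPM and 5.04 ± 2.09 RPKM in RP lines. Dnmt3b averaged 3.71 ± 1.84 RPKM in RPM and 3.20 ± 0.562 RPKM in RP lines. Dnmt1, Dnmt3a, Dnmt3b and the 3 TET genes were thus read in every library, whereas Dnmt3l, a catalytically inactive partner of the de novo enzymes, was listed in neither.

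Between RPM and RP lines, 0 of the 10 genes passed the test, limma-trend on log2(CPM + 1) with Benjamini-Hochberg adjustment over 14360 genes and a threshold of 0.05. Of all genes tested, 0.334% passed (0.209% or 30 genes higher, 0.125% or 18 genes lower), so 0 of 10 does not set these genes apart from the rest. Dnmt1 (log2 change -0.45), Tet3 (-0.47), Trim28 (-0.44) and Uhrf2 (0.83) had an unadjusted p under 0.05, as had 15.9% of all genes, with adjusted p of 0.275 to 0.314 in limma. The values of RPM and RP lines overlapped for 10 of the 10 genes, while 9.37% of all genes did not overlap (4.97% higher and 4.39% lower). The median log2 change was 0.03 over the 10 genes and -0.01 over all genes. The edgeR quasi-likelihood test and DESeq2, run on the recovered reads, also called 0 of the 10.

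**Figure D1:**
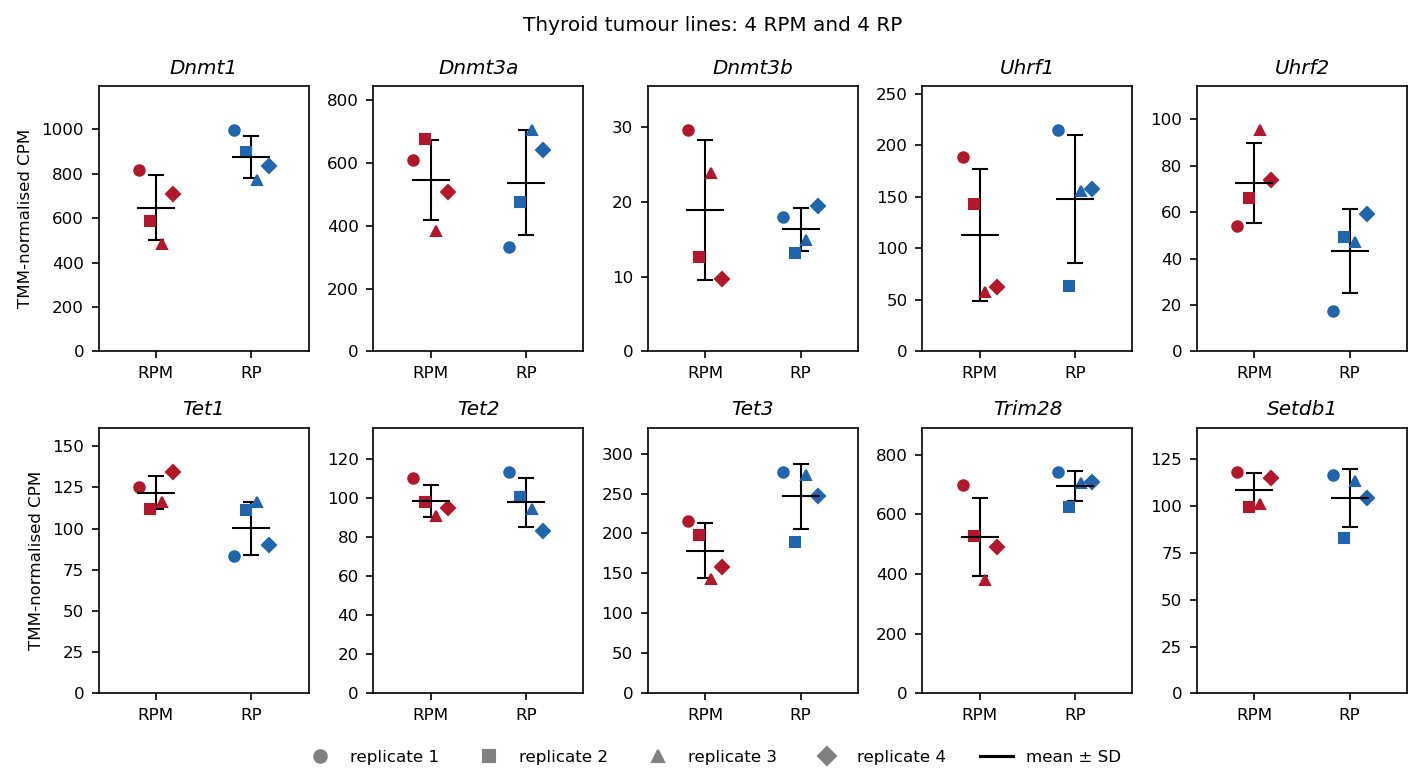
TMM-normalised CPM of each of the 10 genes (vertical axes, from 0) in 4 RPM and 4 RP lines; marker shape gives the replicate, lines the mean and SD. RPM and RP values overlap in every panel, and Uhrf1, Uhrf2 and Dnmt3b spread most, with highest over lowest values of 3.73, 5.42 and 3.06.

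Among the writers, Dnmt1, the maintenance methyltransferase, had 817, 586, 482 and 707 CPM in RPM replicates 1 to 4 and 996, 897, 771 and 835 CPM in RP replicates 1 to 4. Only RPM replicate 1 reached into the range of the RP lines. In limma the log2 change was -0.45 (SE 0.19), with limma's adjusted p = 0.300. Dnmt3a, which methylates CpG pairs de novo, had 608, 677, 384 and 508 CPM in RPM and 332, 474, 704 and 640 CPM in RP lines. The 2 ranges largely coincided, and the lowest and the highest value both lay in RP lines. The log2 change of 0.04 had a 95% interval of -0.57 to 0.66. Dnmt3b, the second de novo enzyme, had 29.6, 12.6, 23.9 and 9.66 CPM in RPM and 17.9, 13.1, 14.9 and 19.4 CPM in RP lines. Its highest and its lowest value both lay in RPM lines, on either side of the whole RP range. The log2 change of 0.09 had a 95% interval of -0.72 to 0.89.

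Uhrf1, which guides DNMT1 to replicated DNA, had 188, 143, 57.5 and 62.4 CPM in RPM lines and 214, 63.5, 155 and 158 CPM in RP lines. The values fell into a low set of 57.5 to 63.5 CPM (RPM replicates 3 and 4 and RP replicate 2) and a high set of 143 to 214 CPM, and both genotypes had members in each. The log2 change was -0.44, with a 95% interval of -1.54 to 0.65. It depended on the lines: it was -0.75 without RPM replicate 1 and -0.80 without RP replicate 2, but -0.18, -0.22 and -0.22 without RPM replicate 3, RPM replicate 4 and RP replicate 1. Uhrf2, its paralogue, had 54.2, 66.2, 95.3 and 73.9 CPM in RPM lines and 17.6, 49.3, 47.1 and 59.1 CPM in RP lines. RP replicate 1 stood far below the other lines, and RPM replicate 1 was the one RPM line inside the RP range. Its log2 change was 0.83 (SE 0.36), the largest of the 10 genes, with limma's adjusted p = 0.314. Without RP replicate 1 it was 0.45. Across the 8 lines the highest value of Uhrf2 was 5.42 times the lowest, that of Uhrf1 3.73 times and that of Dnmt3b 3.06 times, against a median of 1.97 times (quartiles 1.6 and 2.85) over 10373 genes of mean CPM of at least 10.

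Of the erasers, Tet3 had 216, 198, 143 and 158 CPM in RPM and 277, 189, 273 and 246 CPM in RP lines. RP replicate 2 was the one RP line among the RPM values. The log2 change was -0.47 (SE 0.18), with limma's adjusted p = 0.275, the smallest of the 10 genes. Tet1 had 125, 112, 116 and 134 CPM in RPM and 83.4, 111, 116 and 89.9 CPM in RP lines, and of the RP lines replicate 3 lay within the RPM range and replicate 2 just below it. Its log2 change of 0.29 had a 95% interval of -0.02 to 0.60. Tet2 was the steadiest of the 10 genes, at 110, 98.0, 91.3 and 94.9 CPM in RPM and 113, 101, 94.7 and 83.4 CPM in RP lines. Its highest line was 1.36 times its lowest, and the log2 change of 0.01 had a 95% interval of -0.27 to 0.30.

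Of the silencing pair, Trim28, the corepressor, had 699, 527, 380 and 492 CPM in RPM and 741, 626, 707 and 708 CPM in RP lines. The RP lines lay close together, and RPM replicate 1 was the one RPM line among them. The log2 change was -0.44 (SE 0.19), with limma's adjusted p = 0.308. Setdb1, the H3K9 methyltransferase, had 118, 99.6, 101 and 115 CPM in RPM and 117, 82.7, 113 and 104 CPM in RP lines. Its ranges coincided apart from a low RP replicate 2, and the log2 change of 0.06 had a 95% interval of -0.25 to 0.38. The 8 lines were not equally placed over the 10 genes: RPM replicate 3 had the lowest value of Dnmt1, Uhrf1, Tet3 and Trim28 and the highest of Uhrf2, while RP replicate 1 had the highest value of Dnmt1, Uhrf1, Tet2, Tet3 and Trim28 and the lowest of Dnmt3a, Uhrf2 and Tet1. RPM replicate 3 held the lowest value of 14.8% of 10438 genes, and RP replicate 1 the highest value of 13.4%. Over all 14 libraries, after each table's mean was subtracted, Dnmt1 and Trim28 had Pearson's r = 0.83, Tet3 and Trim28 0.80, Tet3 and Uhrf1 0.80 and Dnmt1 and Uhrf2 -0.71 (n = 14). These are descriptions: the libraries come from 2 tables, and 7 of the 14 bear the name of 1 line.

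**Figure D2:**
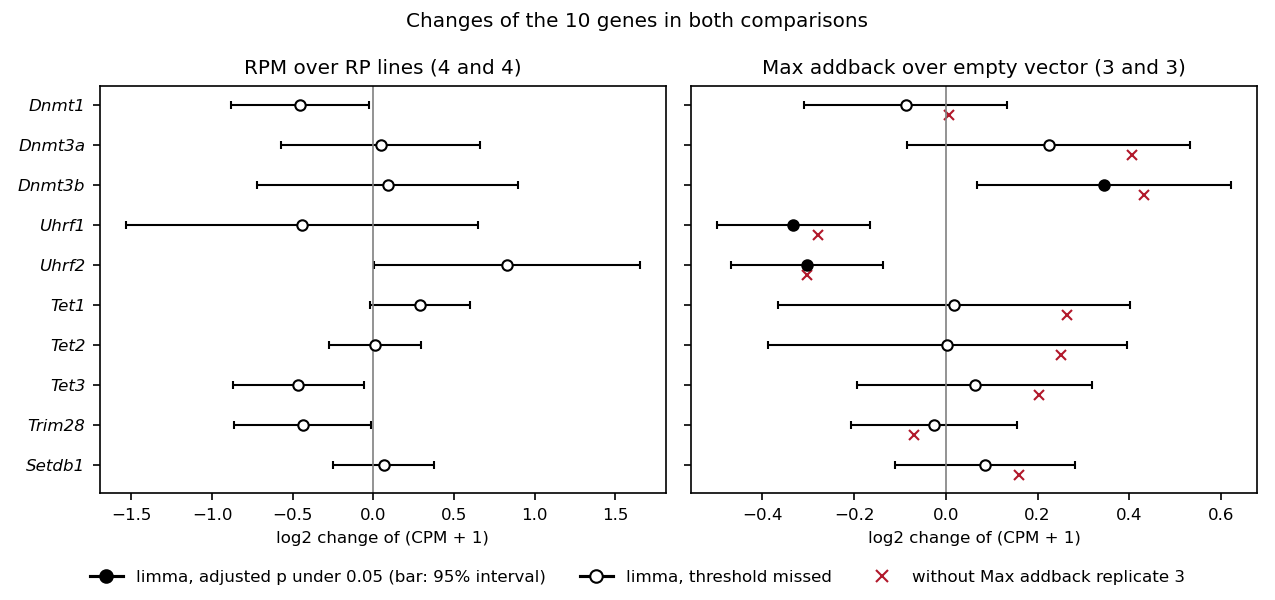
log2 change of (CPM + 1) of the 10 genes, RPM over RP lines (left) and Max addback over empty vector (right), with 95% intervals; filled points passed limma's adjusted p of 0.05, and crosses give the addback change without addback replicate 3. No point on the left is filled; on the right Dnmt3b (0.35), Uhrf1 (-0.33) and Uhrf2 (-0.30) are, and the crosses of Tet1, Tet2, Tet3, Dnmt3a and Setdb1 lie right of their points.

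With Max added back, Dnmt3b rose and Uhrf1 and Uhrf2 fell relative to empty vector cells, at 1.27, 0.794 and 0.811 of the empty vector level. The other 7 genes did not pass the test. Of all 14056 genes 53.2% passed (27.7% higher and 25.5% lower), beside 3 of the 10 genes. Leaving out addback replicate 3, it was 8 of the 10 genes, beside 64.3% of all genes. With all 6 libraries, the median absolute log2 change was 0.09 over the 10 genes and 0.34 over all genes. The groups did not overlap for Dnmt3b, Uhrf1 and Uhrf2, against 61.9% of all genes (31.7% higher and 30.2% lower). An unadjusted p under 0.05 was found for 58.9% of all genes. Without addback replicate 3 the log2 changes of the 10 genes ran from -0.30 (Uhrf2) to 0.43 (Dnmt3b). Addback values of Dnmt3a, Tet1, Tet2, Tet3 and Setdb1 then also lay above every empty vector value. The median and the share without overlap over all genes were not computed without that replicate. Leaving out a library cannot bring that share below 61.9%, so this placing does not set these genes apart from the rest.

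Uhrf1 had 135, 132 and 120 CPM in addback replicates 1 to 3, against 161, 162 and 164 CPM in empty vector replicates 1 to 3. Every addback value lay below every empty vector value. The log2 change was -0.33 (SE 0.07; 0.794-fold), with limma's adjusted p = 0.00404. Uhrf2 had 66.1, 61.0 and 63.4 CPM with addback and 78.7, 76.9 and 80.0 CPM with empty vector, again without overlap. Its log2 change was -0.30 (SE 0.07; 0.811-fold), with limma's adjusted p = 0.0064. Both UHRF genes were lower in all 13 alternatives run, including without addback replicate 3, where the log2 changes were -0.28 and -0.30. In the authors' deposited table their FDR was 0.0103 and 0.0166, with a call of 0 for each.

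Dnmt3b had 20.2, 21.0 and 17.1 CPM with addback and 15, 16.5 and 13.7 CPM with empty vector. The lowest addback value lay just above the highest empty vector value. The log2 change was 0.35 (SE 0.12; 1.27-fold), with limma's adjusted p = 0.0383, on 90 to 169 reads per library. This call was lost with DESeq2 (adjusted p = 0.0775) and in 4 of the 6 fits that left out 1 library (addback replicate 1 or 2, empty vector replicate 1 or 3), while adjusted p over all alternatives ran from 0.000509 to 0.133. The authors' deposited FDR for Dnmt3b was 0.0340, with a call of 0. Without addback replicate 3 the log2 change of Dnmt3b was 0.43 (adjusted p = 0.00509 in limma). Dnmt3a had 618, 619 and 424 CPM with addback and 469, 454 and 478 CPM with empty vector. Replicates 1 and 2 lay above the empty vector values and replicate 3 below them. The log2 change of 0.22 did not pass (limma's adjusted p = 0.197), and without addback replicate 3 it was 0.41, with limma's adjusted p = 5.95e-07. Dnmt1 had 641, 612 and 513 CPM with addback and 640, 603 and 626 CPM with empty vector. Replicates 1 and 2 matched the empty vector range and replicate 3 lay below it, and the log2 change of -0.09 had a 95% interval of -0.31 to 0.13.

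**Figure D3:**
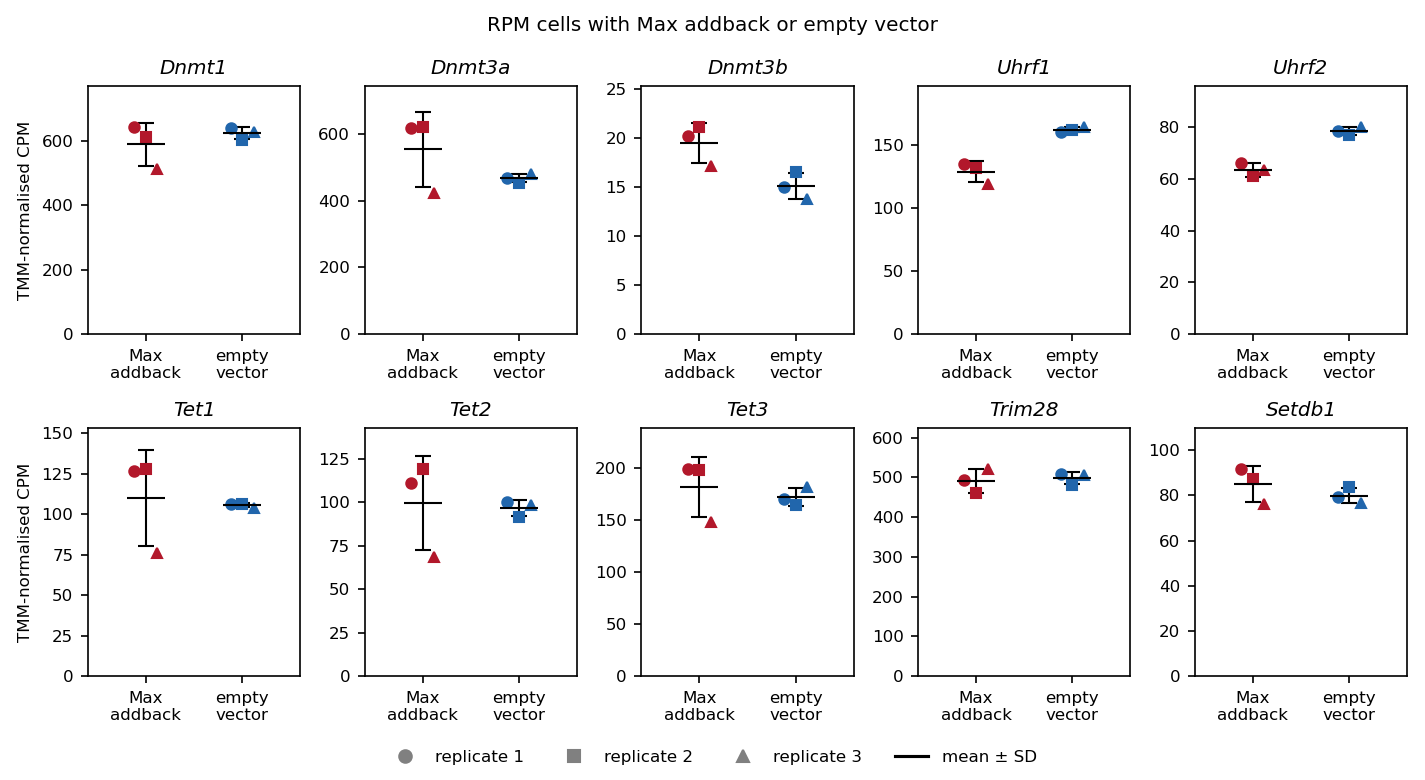
TMM-normalised CPM of the 10 genes (vertical axes, from 0) in 3 Max addback and 3 empty vector libraries, all labelled with the name of 1 RPM line; marker shape gives the replicate, lines the mean and SD. Uhrf1 and Uhrf2 are lower in each addback library, and addback replicate 3 (triangle) is the lowest of the 6 libraries for 7 of the 10 genes.

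The 3 TET genes shared one pattern. Tet1 had 126, 128 and 75.9 CPM with addback and 107, 107 and 104 CPM with empty vector; Tet2 had 111, 119 and 68.5 CPM with addback and 100, 91.6 and 98.3 CPM with empty vector. Tet3 had 199, 198 and 148 CPM with addback and 171, 165 and 182 CPM with empty vector. For each TET gene addback replicates 1 and 2 lay above every empty vector value and replicate 3 below every one. Over all 6 libraries the log2 changes were 0.02, 0.0035 and 0.06 for Tet1, Tet2 and Tet3, with limma's adjusted p of 0.937, 0.988 and 0.664. Without addback replicate 3 they were 0.26, 0.25 and 0.20, with limma's adjusted p of 0.000312, 0.00139 and 0.00276. Setdb1 had 91.5, 87.2 and 76.3 CPM with addback and 79.3, 83.7 and 76.8 CPM with empty vector, with the same placing of replicate 3; its log2 change was 0.08 with all libraries and 0.16 without replicate 3 (limma's adjusted p = 0.439 and 0.0315). Trim28 had 492, 461 and 520 CPM with addback and 510, 482 and 507 CPM with empty vector. These values were interleaved, and the log2 change of -0.03 had a 95% interval of -0.21 to 0.15. Without addback replicate 3, 6 genes were thus called higher (Dnmt3a, Dnmt3b, Tet1, Tet2, Tet3 and Setdb1) and 2 lower (Uhrf1 and Uhrf2), against 32.5% and 31.7% of all genes. With limma's arrayWeights 6 were called higher too, but addback replicate 3 was weighted at 0.158 and replicate 2 at 4.14. That fit is therefore not a separate check, and its share of all genes is not given here.

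The departure of addback replicate 3 followed gene length, a comparison chosen after its values were seen. Set against the mean of replicates 1 and 2, its median log2 difference was 0.34 in 948 genes under 2 kb, 0.17 in 2846 genes of 2 to 4 kb, -0.04 in 4152 genes of 4 to 8 kb and -0.31 in 2114 genes of 8 kb and more. Tet1, Tet2, Tet3 and Dnmt3a, whose lengths behind the authors' RPKM are 15.5 to 16.9 kb, differed by -0.74, -0.74, -0.42 and -0.54. Trim28, the shortest of the 10 at 4.16 kb, differed by 0.13, and Uhrf1 at 4.26 kb by -0.16. Dnmt3b (5.11 kb), Setdb1 (6.85 kb) and Dnmt1 (7.38 kb) differed by -0.26, -0.22 and -0.29, below the lower quartile of their class, -0.20. Tet1, Tet2 and Dnmt3a lay below that of theirs, -0.50, while Tet3 and Uhrf1 lay between the quartiles. Trim28 and Uhrf2 (-0.0035 at 8.59 kb) lay above the upper quartiles of their classes, 0.11 and -0.11. Replicates 1 and 2 differed from each other by a median of -0.07 to 0.02 over the same 4 classes of length. Replicate 3 had the lowest level of the 6 libraries for 7 of the 10 genes, against 26.7% of 10060 genes. Whether length, RNA quality or library preparation set these values was not tested.

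**Figure D4:**
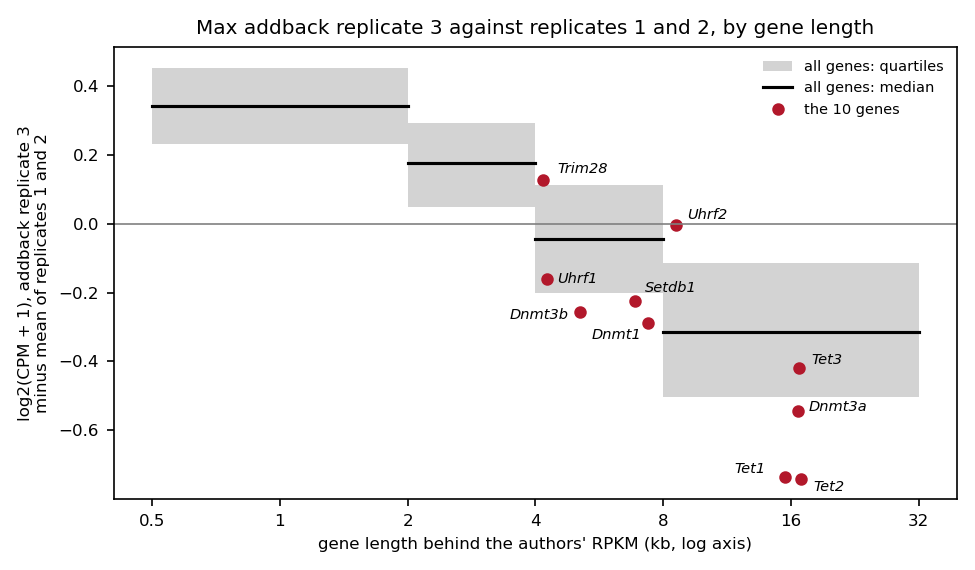
Horizontal axis, gene length behind the authors' RPKM (kb, log axis); vertical axis, log2(CPM + 1) of Max addback replicate 3 minus the mean of replicates 1 and 2. Grey bands and black lines give the quartiles and median of all genes in 4 length classes, from 0.34 to -0.31; the red points of Tet1, Tet2 and Dnmt3a lie lowest, at -0.74, -0.74 and -0.54.

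The genes whose levels ran most like those of the 10 were ranked by Pearson's r over the 14 libraries, after each table's mean was subtracted, among 12917 genes. The 3 nearest genes of each of the 10 had r of 0.78 to 0.98. Of these 30, 5 lay on the chromosome of the gene they resembled, all of them partners of Uhrf1 or Trim28. The same share among all pairs of genes was not computed. For Uhrf1 all 3 did: Fem1a (r = 0.98), 0.0465 Mb away on chromosome 17, Mllt1 (0.98), 0.589 Mb away, and Msh6 (0.97), a mismatch repair gene 31.7 Mb away. For Trim28 they were Lig1 (0.96), the replication DNA ligase gene 0.278 Mb away on chromosome 7, Chaf1b (0.95), a subunit of the replication-coupled histone chaperone on chromosome 16, and Pak4 (0.92), 15.6 Mb away. Fam20b stood nearest to Dnmt1 (0.95), Man2a1 to Dnmt3a (0.90), Zcwpw1 to Dnmt3b (0.88), Tshz2 to Uhrf2 (0.97), Smcr8 to Tet1 (0.80), Vps13c to Tet2 (0.89), Hectd4 to Tet3 (0.91) and Fam135a to Setdb1 (0.92), none of them on the chromosome of its partner. The libraries share tables and, in the addback experiment, a line name, and nothing is read from them on control or function.

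Because of the place of Fem1a and Mllt1, the genes around Uhrf1 (mm10, chromosome 17, 56303321 to 56323486, plus strand) were examined after the values were seen. In the 8 lines Uhrf1 deviated from its mean by 0.70, 0.30, -1.0 and -0.88 on the log2 scale in RPM replicates 1 to 4 and by 0.88, -0.86, 0.42 and 0.44 in RP replicates 1 to 4. The median deviation of 41 genes of mean CPM of at least 10 within 5 Mb was 0.24, 0.27, -0.45 and -0.48 in RPM and 0.30, -0.35, 0.18 and 0.22 in RP lines. Its sign was that of Uhrf1 in 8 of the 8 lines, at a smaller size. Fem1a and Mllt1, whose likeness to Uhrf1 prompted this look, were not left out of the window, so the shared sign is a description only. Over 500 genes of chromosome 17 the median lay between -0.29 and 0.14. Copy number and other regional differences between lines were not tested.

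**Figure D5:**
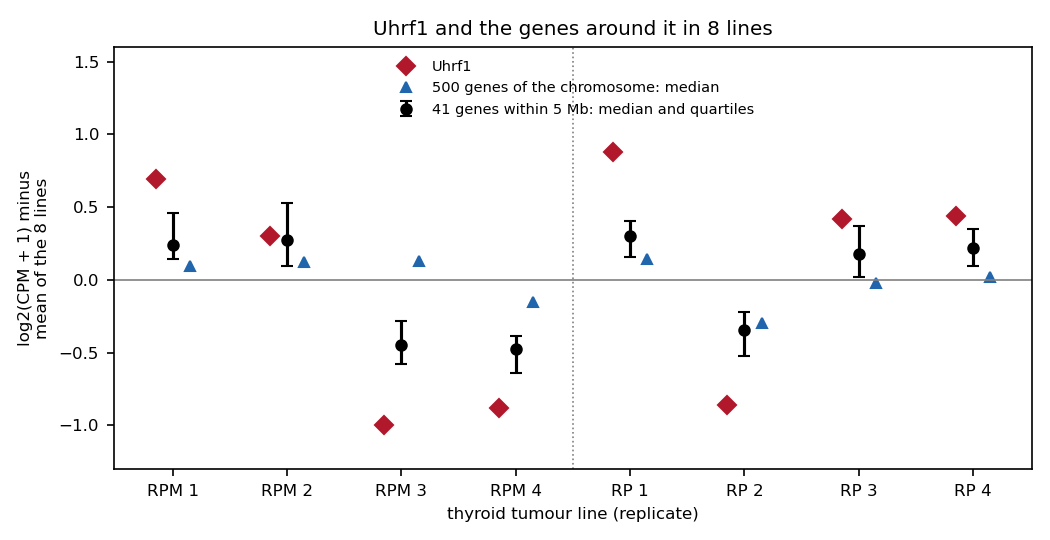
log2(CPM + 1) minus the mean of the 8 lines (vertical axis) in each RPM and RP line (horizontal axis) for Uhrf1 (diamonds), for 41 genes within 5 Mb (circles with quartiles) and for 500 genes of its chromosome (triangles, median). In RPM replicates 3 and 4 and RP replicate 2, Uhrf1 (-1.0, -0.88 and -0.86) and the circles around it (-0.45, -0.48 and -0.35) are both below 0.

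Of the 3 genes that passed in the addback experiment, Dnmt3b and Uhrf2 stood among neighbours whose median change had their sign and lay away from that of all genes. Some genes that did not pass did so too. Around Dnmt3b (chromosome 2, 153649450 to 153687730, plus strand), 62 of 94 genes within 5 Mb were called higher with addback and 3 lower, with a median log2 change of 0.40 beside its own 0.35. Around Uhrf2 (chromosome 19, 30030513 to 30093722, plus strand), 4 of 29 were called higher and 15 lower, with a median of -0.26 beside its own -0.30. Around Uhrf1, 5 of 35 were called higher and 9 lower, with a median of -0.10 beside its own -0.33. Among all 10060 genes of that level 24.4% were called higher and 29.4% lower, with a median of -0.05. The neighbours of Uhrf1 were thus not called lower more often than genes at large. Of genes that did not pass, Setdb1 had 35 of 71 neighbours called higher and 9 lower, with a median of 0.27 beside its own 0.08. Tet2 had 16 of 29 called higher and 2 lower, with a median of 0.24 beside its own 0.0035. Without addback replicate 3 these counts were 40 and 10 around Setdb1 and 16 and 7 around Tet2. Dnmt3a (chromosome 12, 3806007 to 3914443, plus strand) went against its surroundings, where 0 of 21 genes were called higher and 16 lower, with a median of -0.43 beside its own 0.22. Without addback replicate 3 the counts higher and lower were 67 and 4 around Dnmt3b, 6 and 16 around Uhrf2, 7 and 13 around Uhrf1 and 0 and 16 around Dnmt3a, against 30.8% and 37.6% of all genes of that level. Between RPM and RP lines the median around Trim28 (chromosome 7, 12999114 to 13031035, plus strand) was -0.30 over 40 genes, beside its own -0.44, and around Uhrf2 0.35 over 28 genes, beside its own 0.83. Around Dnmt1 it was 0.02 over 59 genes, beside its own -0.45, and around Tet3 -0.07 over 65 genes, beside its own -0.47. On the other strand, exons of Setdb1 overlap 249 bases of Gm37500 and 75 bases of Cers2, those of Dnmt3a 133 bases of the antisense transcript Dnmt3aos and those of Tet2 43 bases of Gm42567. The sources used here do not say if counting used strand, and reads of these shared stretches cannot be told apart.

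Genes that work with the 10 were described from lists of partners and substrates. In the RPM lines, 0 of 7 listed accessory factors, 0 of 10 methyl-CpG readers, 0 of 16 base excision and TET cofactor genes, 0 of 21 H3K9 methylation and KRAB repression genes and 0 of 7 methyl donor genes passed in limma. DESeq2 called 1 gene higher among the TET cofactors, 2 higher among the methyl donor genes and 1 lower among the H3K9 genes, beside 2.45% higher and 2.12% lower among all genes; limma called 0.209% and 0.125%. Of the 12 germline genes, a class that DNA methylation commonly silences, 4 were listed, and Tdrd1, a piRNA pathway Tudor gene, was called: it averaged 51.8 ± 18.2 CPM in RPM and 1.21 ± 2.34 CPM in RP lines (SD, n = 4 each), with a log2 change of 4.99 and limma's adjusted p = 0.0325. No germline gene was called by the edgeR test, with the replicate block, or when any line other than RPM replicate 1 or RP replicate 4 was left out.

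With addback, 2 of 7 accessory factors fell and 0 rose. Cdca7, which with the remodeller HELLS keeps DNA methylated, averaged 23.4 ± 0.894 CPM with addback and 35.4 ± 2.01 CPM with empty vector (SD, n = 3 each), a log2 change of -0.58 (limma's adjusted p = 0.000549), and its paralogue Cdca7l changed by -0.18 (limma's adjusted p = 0.0483). The edgeR test and DESeq2 each called 1 of the 7 lower. Of 10 methyl-CpG readers 3 rose and 0 fell: Mbd6 by 0.50, Zbtb4 by 0.33 and Mbd2 by 0.28 on the log2 scale. Among 16 base excision and TET cofactor genes 6 rose and 6 fell, led by Cxxc4, a CXXC protein known to bind TET2, at 72.9 ± 10.8 CPM with addback and 20.2 ± 1.90 CPM with empty vector (log2 change 1.8), and by the uracil glycosylase gene Ung at 34.5 ± 3.20 CPM with addback and 76.4 ± 2.86 CPM with empty vector (log2 change -1.13). Of 22 H3K9 methylation and KRAB repression genes 4 rose and 5 fell, with Zfp57 (-0.80), Zfp445 (-0.79) and Trim24 (-0.61) the largest changes; ZFP57 and ZFP445 are KRAB zinc finger proteins that bind imprinted loci and recruit TRIM28 there. Of 7 methyl donor genes 3 fell and 0 rose: Mat2a, which makes S-adenosylmethionine, by 0.46, Mtr by 0.43 and Ahcyl2 by 0.37. Of the 4 germline genes 2 fell: Tdrd1 (log2 change -2.18) and Stag3 (-0.94). These counts stand beside shares of 27.7% higher and 25.5% lower among all genes. Without addback replicate 3, 32.5% of all genes were called higher and 31.7% lower. The readers then counted 6 higher and 1 lower, the H3K9 genes 7 and 7 and the methyl donor genes 2 and 4. The accessory factors counted 1 and 2, the cofactors 5 and 6 and the germline genes 0 and 2.

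Markers of cell state and cell type were read in the same contrast, beside 27.7% of all genes called higher and 25.5% lower. Of 20 proliferation and S phase genes 3 rose and 9 fell with addback, and their summed level was 6458 to 7776 CPM with addback and 9448 to 9686 CPM with empty vector. Leaving out addback replicate 3 gave 3 and 13, beside 32.5% and 31.7% of all genes. In the lines these 20 genes summed to 5551 to 8552 CPM in RPM and 4936 to 7237 CPM in RP lines, with 0 called. Of 10 C cell and neuroendocrine markers 9 rose and 0 fell with addback, or 9 and 1 without addback replicate 3 (summed level 9787 to 11286 CPM with addback and 5193 to 5534 CPM with empty vector), and of 6 epithelial markers 6 rose (458 to 543 CPM with addback and 74.4 to 83.0 CPM with empty vector). The 2 listed fibroblast markers, Dcn and Col1a1, fell (5.34 to 7.10 CPM with addback and 28.9 to 39.2 CPM with empty vector), while Col1a2, Col3a1, Lum and Pdgfra were not listed. Of the follicular markers 3 were listed and 1, Pax8, fell, at sums of 2.24 to 2.67 CPM with addback and 2.29 to 3.55 CPM with empty vector, and the 1 endothelial and 1 immune marker listed did not pass. The part of the cell cycle, of cell state and of the mix of cells in the levels of the 10 genes was not tested.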

How the data were processed

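Values of 14 cell libraries were analysed. The members and gene lists were chosen with earlier results of these data known. Per the submitters' processing notes, the tools were bcl2fastq 1.8.4, TopHat2 2.1.0, HTSeq 0.6.1 and edgeR (no version given), and the build was mm10. The sources used here name neither the annotation release nor the filter behind the gene tables. For each gene and library the authors deposited, per the file headers, a CPM signal scaled with TMM and an RPKM value, normalised separately in the 2 tables (14360 genes for the lines, 14056 for the addback experiment), with log2 fold changes, average log2 levels, p-values, FDR and a call score of -1, 0 or 1. The culture medium was DMEM with 10% serum, and RNA came from a Trizol and column extraction, per the labels' protocols.

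CPM values were whole multiples of 1 read: 100% of values came out whole within 0.01 of a read. Limma 3.58.1 (limma-trend, R 4.3.3) was run on log2(CPM + 1) of all listed genes, two-sided, with Benjamini-Hochberg adjusted p under 0.05; low genes have their changes understated on this scale. The fits used the 8 libraries of the lines or the 6 of the addback experiment, with no covariate. Alternatives were a pseudocount of 0.25, genes of mean CPM of at least 1 only, median-of-ratios scaling, edgeR 4.0.16 and DESeq2 1.42.0 on the recovered reads, arrayWeights, a replicate block and leaving out each library. The edgeR test called 3893 genes higher and 3537 lower with addback. Named genes are the 10, every list gene called in the lines, the 3 called list genes of largest absolute change with addback (mean CPM of at least 1 in 1 group) and the 3 genes most correlated with each of the 10. A gene that this rule names is not reported here. Fam208a is listed by its current symbol, Tasor. Coordinates are from GENCODE vM21. The neighbour and length comparisons, and the neighbours without addback replicate 3, were added after values were seen.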

Additional observations from a re-analysis of the deposited data

How the results depend on the processing

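Between RPM and RP lines, 0 of the 10 genes were called in any of the 15 alternatives (smallest adjusted p = 0.0962, Tet3), and 6 kept their sign in all of them. The count of all genes called, 30 higher and 18 lower in limma, was 1 and 2 with edgeR, 352 and 305 with DESeq2, 53 and 54 with arrayWeights, and 0 to 77 higher and 0 to 184 lower when 1 line was left out. With arrayWeights Dnmt3a (-0.15) and Dnmt3b (-0.19) changed sign. With 1 line left out, the log2 change ran from -0.17 to 0.20 for Dnmt3a, -0.16 to 0.35 for Dnmt3b, -0.062 to 0.084 for Tet2 and -0.041 to 0.12 for Setdb1. With addback, Uhrf1 and Uhrf2 were called lower in all 13 alternatives. Members called higher, 1 in limma, were 0 with DESeq2 and 6 with arrayWeights, which weighted addback replicate 3 at 0.158. They were 0 to 6 when 1 library was left out. The signs that turned then were of Dnmt1 (-0.15 to 0.0080), Tet1 (-0.11 to 0.26), Tet2 (-0.14 to 0.25), Tet3 (-0.0087 to 0.20) and Trim28 (-0.069 to 0.019). The cause was not tested.

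Replicate numbers are shared between groups, and these values do not settle whether they pair the libraries. Deviations from group means of same-numbered libraries correlated at 0.40, 0.05, 0.01 and 0.13 in the lines and at 0.03, 0.01 and 0.08 in the addback experiment. Differently numbered lines correlated at -0.29 to 0.19, and not every library correlated best with its own number. With the replicate block, 0 genes were called higher and 0 lower between the lines, and 3848 and 3590 with addback; calls of the 10 genes did not change. Depth limits Dnmt3b most, at 78 to 232 reads per library.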

Other observations

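Of 4 Y-linked genes (Ddx3y, Eif2s3y, Kdm5d and Uty), RPM replicate 3 held 0 reads and RP replicate 2 held 1, while the other 6 lines held 860 to 2207. Xist reached 1958 CPM in the RPM lines and 5042 CPM in the RP lines at its highest. RP replicate 4 held both kinds: Xist and the 4 Y-linked genes summed to 505 CPM, of which the Y-linked genes gave 161 CPM. Its listed germline genes summed to 58.4 CPM, against 12.5, 9.38 and 6.58 CPM in RP replicates 1 to 3. Whether that line is mixed was not tested. In the addback experiment Xist averaged 2.24 CPM with addback and 1.46 CPM with empty vector, and the addback libraries held 0, 1 and 2 reads of the Y-linked genes, against 2958, 2923 and 2686 in empty vector libraries.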
